A study of Anguilla anguilla with 12 samples.

Results

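The genes described here are the cohesin, condensin and meiotic chromosome genes of the European eel. They were chosen by name only, as all genes whose annotated product mentions structural maintenance of chromosomes (SMC), cohesin, condensin, synaptonemal, meiosis, meiotic, stromal antigen or shugoshin. The rule took 60 of the 31061 genes listed, and 2 of the 60 had no count in any library. It takes some genes by their name alone, such as rmnd1, a mitochondrial translation factor in humans, and mios, a part of a nutrient-sensing complex in humans.

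Poly(A) RNA was sequenced in 4 groups of 3 libraries, with 3 feminized females per treatment: oocytes taken by cannula just before an injection of progesterone (P), eggs stripped after P, oocytes taken just before an injection of DHP, the dihydroxylated progestin that induces maturation in eels, and eggs stripped after DHP. All females had been feminized with estradiol in their feed, had carried an implant of methyltestosterone and estradiol, and had received weekly carp pituitary extract, so every group shares these treatments. P and DHP were injected at the same dose. P is the precursor of DHP, which carries an added hydroxyl group and a reduced ketone. The females were reared from farmed elvers, 3 per treatment, and oocyte samples of this kind can still hold follicle cells around the oocyte. The oocyte libraries were numbered 1, 5 and 9 in the P arm and 3, 7 and 11 in the DHP arm. The egg libraries were numbered 2, 6 and 10 in the P arm and 4, 8 and 12 in the DHP arm. The tables named the libraries by number, and oocytes and eggs were paired by the order of these numbers. Nothing in the counts separates the amount of a transcript from the length of its poly(A) tail, since the libraries were made from poly(A) RNA.

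Cohesin is a ring of SMC1, SMC3 and a kleisin (RAD21, or REC8 in meiosis) that, with a STAG or SA subunit, holds sister chromatids together until separase cuts the kleisin. Condensin I and condensin II share SMC2 and SMC4, differ in their kleisin (NCAPH or NCAPH2) and their HEAT-repeat subunits, and compact chromosomes for division. In fish, the oocyte stops in meiotic prophase with synapsis and recombination behind it, resumes meiosis at maturation and is ovulated in metaphase of the second meiotic division, and the egg carries the maternal RNA for the first embryonic divisions.

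Libraries held 6612347 to 9903122 counted fragments. Scaling factors (TMM, trimmed mean of M values) were 1.22 to 1.34 in oocytes and 0.723 to 0.857 in eggs, so the choice of scaling bears on every change from oocyte to egg. With TMM the genes tested had a median log2 fold change of -0.26 after P and -0.20 after DHP, and with total counts alone of -1.01 and -0.80. Normalised counts (CPM) are counts divided by the library's total times its TMM factor, on a common scale. The CPM of all genes therefore do not sum to the same total in each library. The 12 follicle cell markers summed to 655 to 1401 CPM in oocytes. In eggs after P they summed to 0.165 to 1.68 CPM, with 9 at 0 (among them fshr, lhcgr, star, inha, gsdf and foxl2a). In eggs after DHP they summed to 0.670 to 21.8 CPM, with gsdf and inha at 0. The 21.8 CPM belonged to library 8, where LOC118231945 had 12.4 CPM and LOC118235591 5.44 CPM. Both genes were at 0 in libraries 4 and 12. The sum of the 9 smooth muscle and stroma markers fell from 189 to 899 CPM in oocytes to 2.52 to 28.7 CPM in eggs, highest in library 8. Among them the collagen LOC118209151 changed by only -0.26 ± 0.56 after P and by 1.63 ± 0.66 after DHP on the log2 scale. The 3 blood and immune markers summed to 22.0 to 91.5 CPM in oocytes and 2.80 to 39.0 CPM in eggs, and 0 were called in either arm. The 32 oocyte markers all had counts and summed to 3149 to 4513 CPM in oocytes and 16684 to 22638 CPM in eggs. The higher sum came from ccnb1 (845 to 2004 CPM in oocytes, 14966.5 to 20876 CPM in eggs), and of the 30 tested 4 were higher and 17 lower after P, and 4 higher and 9 lower after DHP, with median log2 fold changes of -1.74 and -1.97. Values are given as TMM-scaled CPM, in the order of the libraries above, and differentially expressed genes had an adjusted p (edgeR's quasi-likelihood test, Benjamini-Hochberg adjustment over all genes tested) under 0.01.

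In eggs after P, 18 of the 42 members tested were higher than in oocytes before P and 5 were lower. Among all 15348 genes tested, 17.9% were higher and 22.7% lower, and among the members the shares were 42.9% and 11.9%. Their median log2 fold change was 0.74. In eggs after DHP, 8 of the 45 members tested were higher (17.8%) and 0 lower, against 7.35% and 6.22% of all 15149 genes tested, with a median of 0.59. In that comparison 4 members were lower at an adjusted p under 0.05 by edgeR and 3 at 0.01 by DESeq2, against 2755 and 2212 of all 15149 genes. The groups did not overlap in 27 members after P (64.3%) and in 20 after DHP (44.4%), close to the 64.7% and 51.1% of all genes tested. All 8 members called after DHP were also called after P, and 0 members were called in opposite directions. The arms share no library. Of the 42 members tested in both arms, 39 had the same sign of change. The agreement of the arms over all genes was not counted here. The paper reports most of its calls after DHP, over all genes, as shared with P. The agreement is therefore not shown to be particular to the members.

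**Figure D1:**
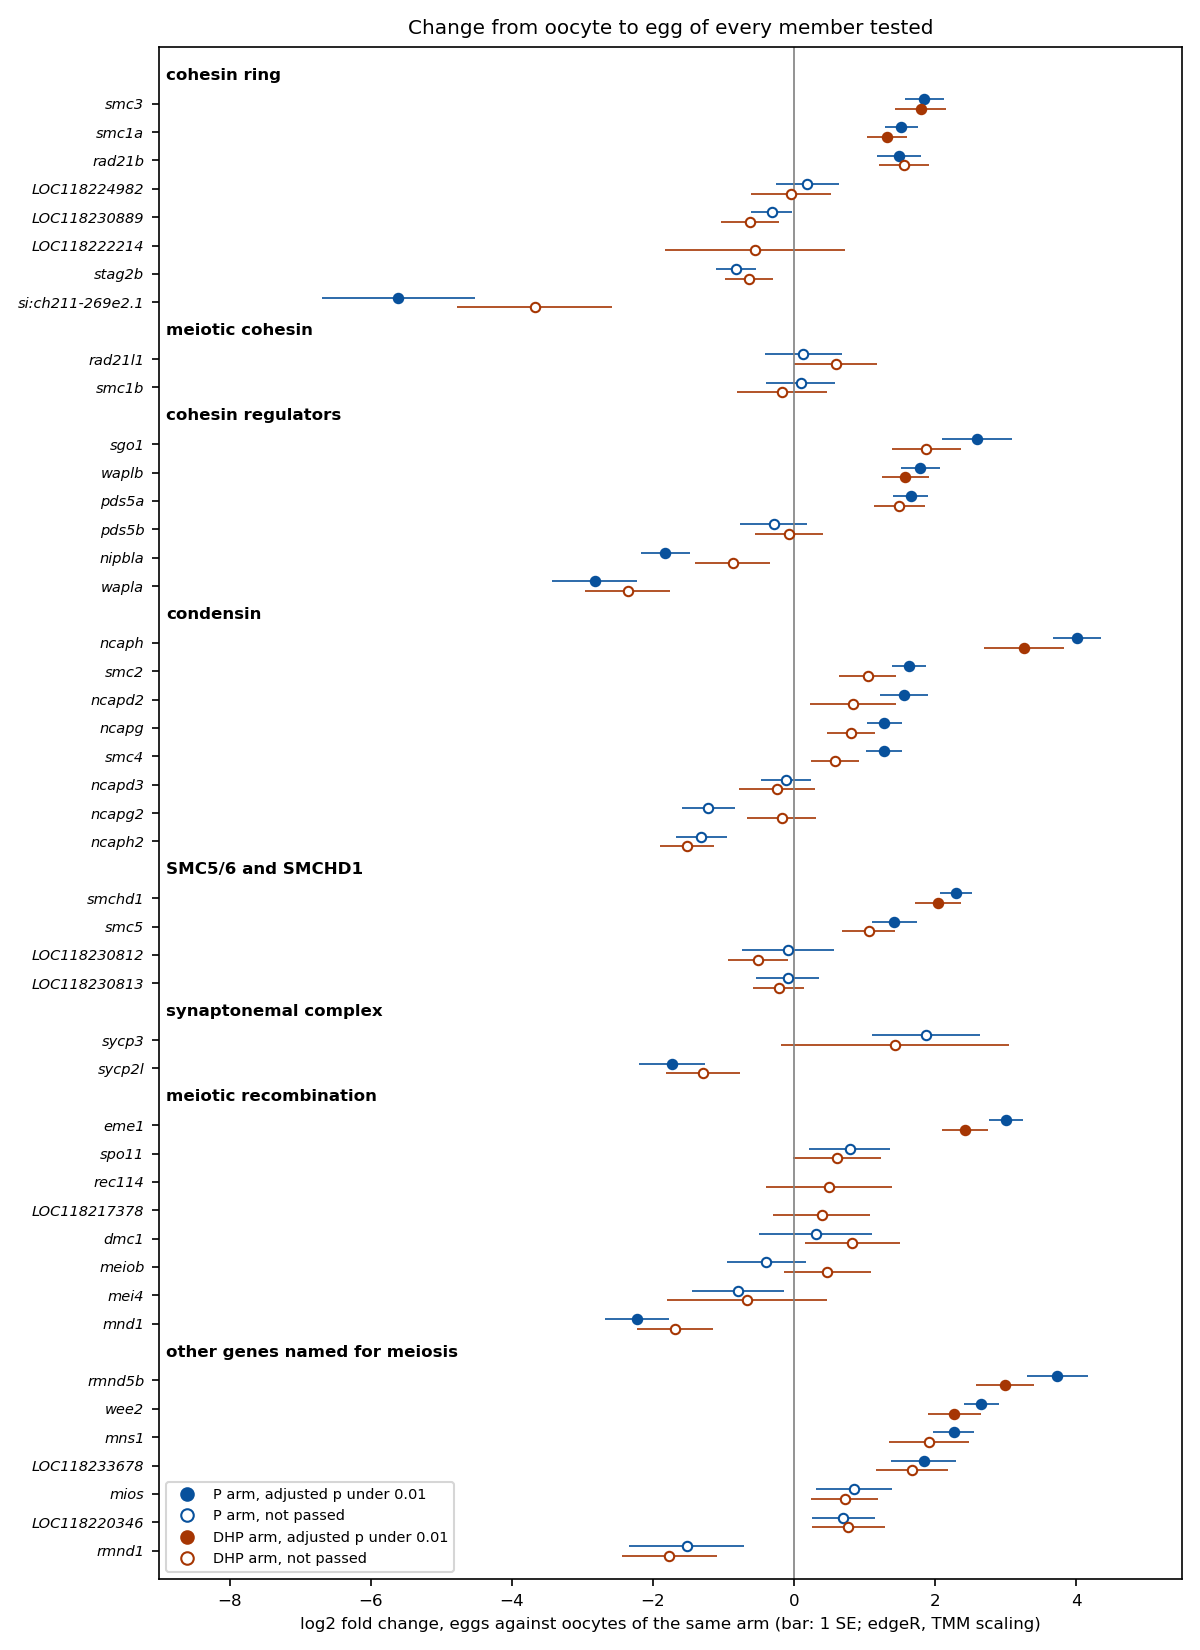
Log2 fold change from oocyte to egg of the 45 members tested in at least 1 arm, by role, with 1 SE (n = 3 libraries a group, TMM scaling). Blue points are the P arm and brown points the DHP arm, and filled points had an adjusted p under 0.01: 18 higher and 5 lower after P, 8 higher and 0 lower after DHP.

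The scaling moved these splits. With total counts alone, 7 members were higher and 8 lower after P, and 5 were higher and 3 lower after DHP. Of all genes tested, 1295 were then higher and 5205 lower after P (of 15348). After DHP 490 were higher and 2105 lower (of 15149), so the calls over all genes moved as well. The members still called higher in both arms with total counts were ncaph, eme1, wee2, rmnd5b and smchd1. DESeq2 called 13 members higher after DHP, adding rad21b, pds5a, sgo1, mns1 and LOC118233678, and 3 lower (mnd1, ncaph2 and wapla). Over all 15149 genes it called 2254 higher and 2212 lower after DHP. The DHP calls also rested on few libraries: when library 7 or library 12 was left out, 0 members were called higher. The count was 1 when library 11 was left out, 4 for library 4, 5 for library 8 and 10 for library 3. The log2 fold changes of the 8 members stayed between 1.16 and 3.41 in those lost calls, with adjusted p from 0.0107 to 0.0425 (edgeR). Over all genes, 2057 were called after DHP. Leaving out library 7 gave 192 genes, library 12 gave 122, library 11 gave 365 and library 4 gave 777.

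Both SMC subunits of the mitotic cohesin ring were higher in eggs of both arms. smc1a (chromosome 11, 25551404 to 25569696, on fAngAng1.pri like all positions here) encodes an ATPase arm of the ring and had the most counts of all members. Its levels were 506, 605 and 419 CPM in oocytes before P and 1293, 1504 and 1670.0 CPM in eggs after P. They were 705, 447 and 502 CPM in oocytes before DHP and 1611, 1485 and 1262 CPM in eggs after DHP. Every egg library was above every oocyte library, with a log2 fold change of 1.52 ± 0.24 after P (SE, adjusted p = 5.06e-04) and 1.32 ± 0.28 after DHP (adjusted p = 0.00791). smc3 (chromosome 18, 30049628 to 30069856), the partner arm, had 206, 281 and 149.7 CPM before and 867, 722 and 739 CPM after P. Around DHP it had 304, 129 and 161 CPM and then 838, 635 and 697 CPM. Its groups did not overlap in either arm (log2 fold change 1.85 ± 0.27, adjusted p = 4.10e-04, and 1.79 ± 0.37, adjusted p = 0.00709), and library 3 was the highest oocyte library for both arms of the ring. These calls passed with TMM scaling; with total counts alone smc1a was not called after P (log2 fold change 0.76, adjusted p = 0.0161) or DHP (0.73, adjusted p = 0.0553), and smc3 was not called after DHP (1.21, adjusted p = 0.0243).

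rad21b (chromosome 8, 42800618 to 42815934), the kleisin that closes the mitotic ring, passed the threshold after P and was just outside it after DHP. It went from 457, 253 and 208 CPM to 904, 799 and 914 CPM around P and from 439, 269.5 and 229 CPM to 662, 1224 and 1026 CPM around DHP. The sizes were alike, 1.49 ± 0.31 after P (adjusted p = 0.00247) and 1.56 ± 0.35 after DHP (adjusted p = 0.0103), and libraries 1 and 3 were the highest of their oocyte groups. The call after P was lost without library 5 (adjusted p = 0.0125) and with total counts alone (0.74, adjusted p = 0.0640). After DHP rad21b was called with DESeq2, RLE scaling, no filter and 1 fit of all 12 libraries.

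No STAG or SA subunit was called higher in either arm. Of all genes tested, 17.9% were higher after P and 7.35% after DHP, so a lack of calls among so few genes is not unusual. stag2b (chromosome 3, 52968981 to 53007603) had 62.9, 67.7 and 50.2 CPM before P and 41.3, 30.7 and 32.1 CPM after it, and 55.5, 43.3 and 60.5 CPM before DHP and 37.2, 36.7 and 34.2 CPM after it. All eggs lay below all oocytes, but neither change passed the threshold (log2 fold change -0.82 ± 0.29, adjusted p = 0.0332, and -0.64 ± 0.34, adjusted p = 0.174). The SA-1 copy with the most counts, LOC118230889 (chromosome 6, 20305143 to 20356737), had 93.5 to 147 CPM before and 67.5 to 117 CPM after P, 113 to 159 CPM before and 56.6 to 139 CPM after DHP. Its groups overlapped in both arms. A further SA-1 copy, RefSeq gene ID 118223898 (chromosome 3, 24748004 to 24773611), was lower after P, with 95 counts in the 3 oocyte libraries and 1 in the 3 egg libraries, or 58.4 times higher in oocytes (95% exact counting interval 10.2 to 2332; edgeR adjusted p = 0.00175). Around DHP it had 1.93 to 4.07 CPM and then 0 to 0.684 CPM (log2 fold change -3.68 ± 1.10, adjusted p = 0.0291). It overlaps LOC118223899, so some reads may belong to either gene, and the call was lost without library 2 (adjusted p = 0.0112) or library 10 (adjusted p = 0.0102). Of the remaining copies, the SA-1-like LOC118224982 had 3.96 to 16.2 CPM in the 12 libraries (log2 fold change 0.19 and -0.04), and LOC118222214 had 0 to 2.42 CPM and was tested in the DHP arm only (-0.55 ± 1.28).

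**Figure D2:**
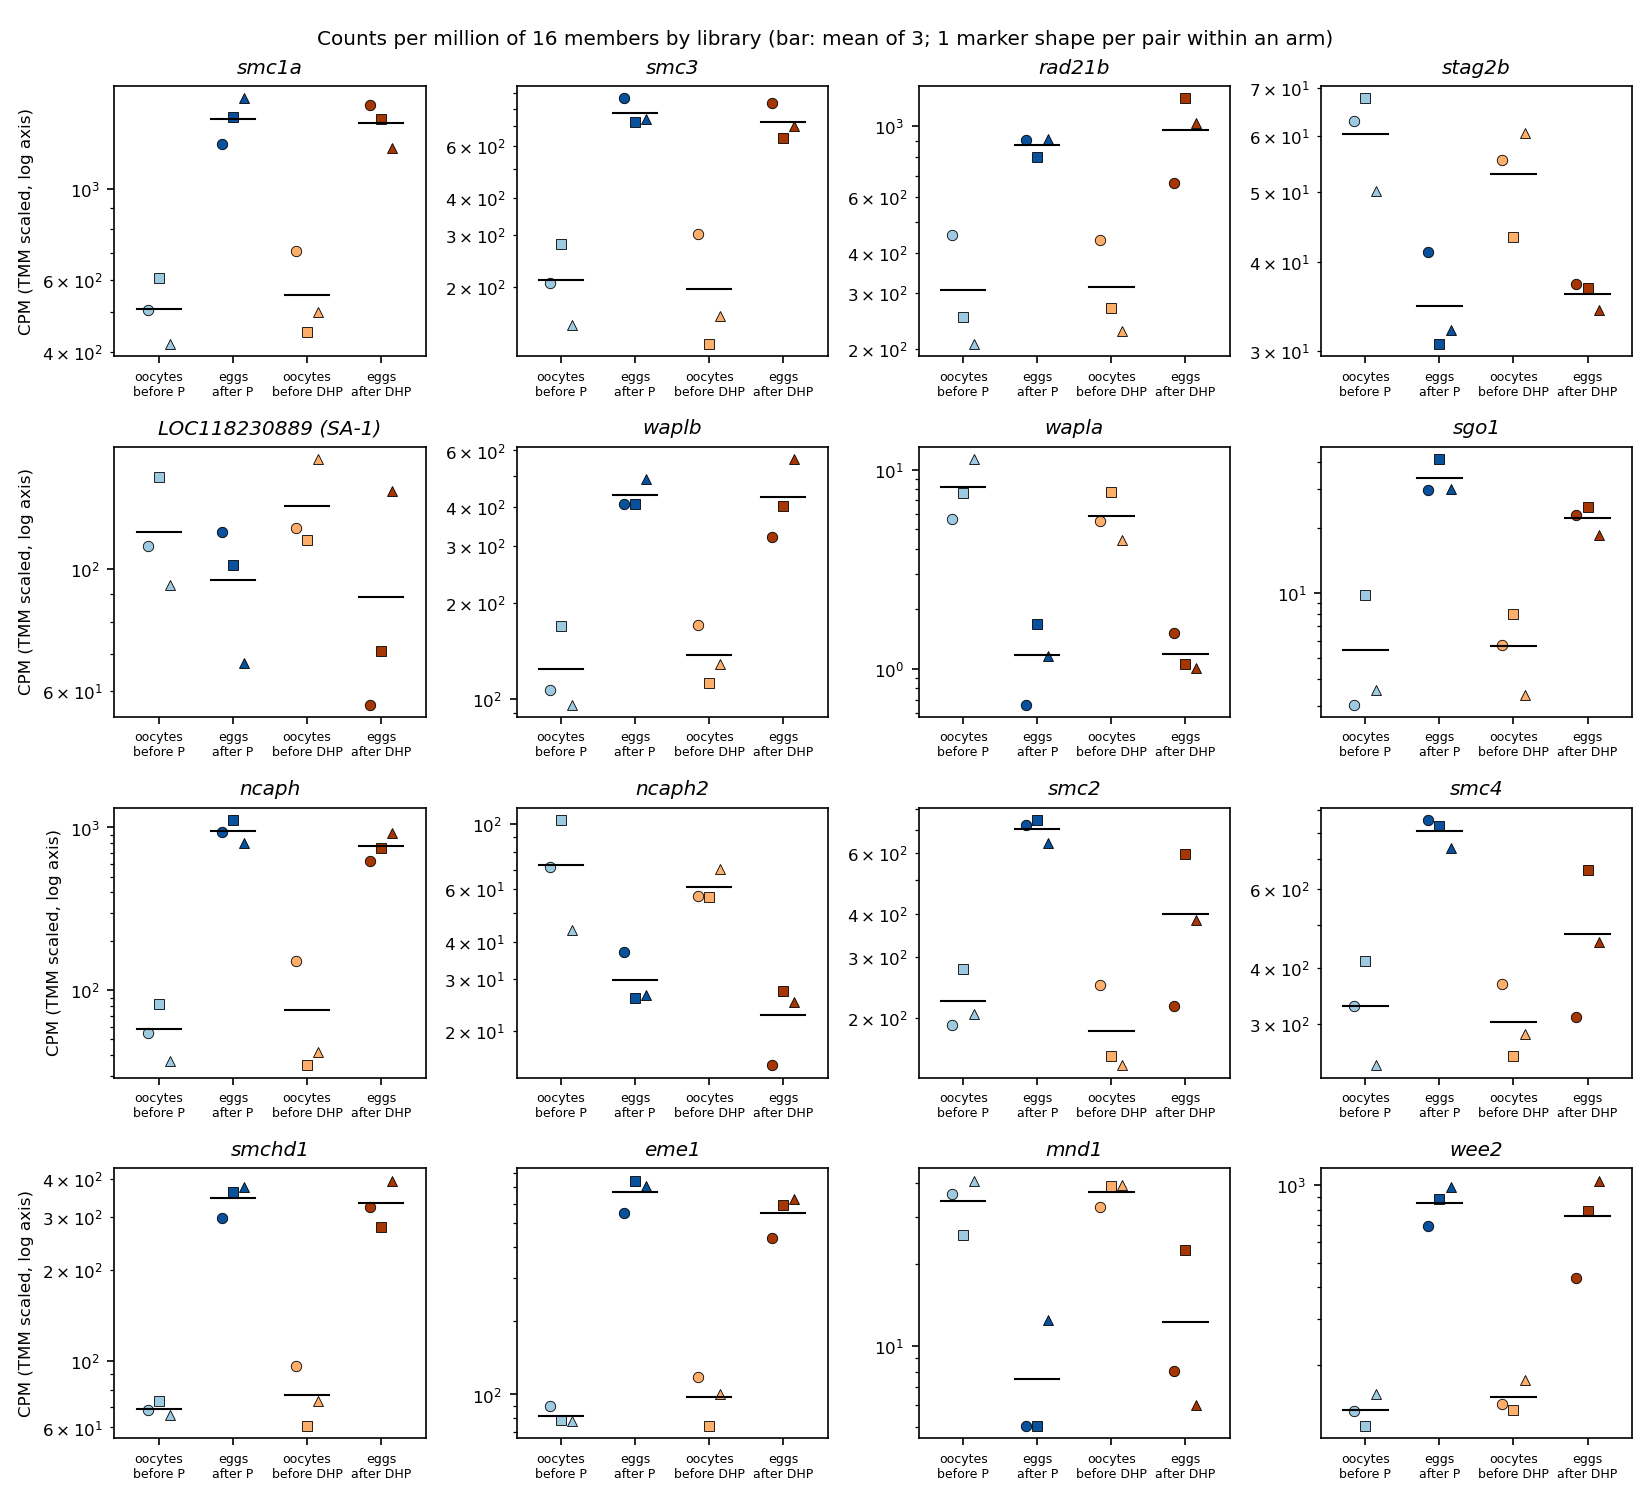
TMM-scaled CPM on a log axis of 16 members in the 12 libraries, 3 a group, with the group mean as a bar and a marker shape for each pair within an arm. Every egg library was above every oocyte library of its arm for smc1a, smc3, rad21b, waplb, sgo1, ncaph, smchd1, eme1 and wee2, whereas stag2b, wapla, ncaph2 and mnd1 were below.

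Meiotic cohesin subunits were few in counts and were not called. smc1b (chromosome 7, 17329215 to 17352339), the meiotic counterpart of smc1a, had 4.97 to 15.05 CPM before P, 7.57 to 12.6 CPM after P, 8.85 to 11.7 CPM before DHP and 2.60 to 16.3 CPM after DHP. rad21l1 (chromosome 13, 19944538 to 19953727), a meiotic kleisin in mammals, had 2.48 to 8.16 CPM over the 12 libraries. The groups of both genes overlapped, with log2 fold changes of 0.09 ± 0.49 and 0.13 ± 0.54 after P and -0.17 ± 0.64 and 0.59 ± 0.59 after DHP. rec8b (chromosome 4, 20006572 to 20016222), a kleisin of meiotic cohesin, had 80 counts in all and was below the filter in both arms. The 5 REC8 homologues clustered on chromosome 1 (LOC118210724, LOC118220708, LOC118220878, LOC118220866 and LOC118230012) had 0 to 5 counts each over the 12 libraries. LOC118230012 had 0, which allows at most 0.0295 CPM over all libraries combined.

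Among the regulators of cohesin, the paralogues waplb and wapla went opposite ways after P. waplb (chromosome 2, 14085568 to 14128682) encodes a release factor that opens the ring. It had 106, 169 and 95.8 CPM and then 409, 407 and 488 CPM around P, and 170.1, 112 and 128 CPM and then 320.2, 402 and 564 CPM around DHP. The groups did not overlap, and the log2 fold change was 1.79 ± 0.28 after P (adjusted p = 4.90e-04) and 1.58 ± 0.34 after DHP (adjusted p = 0.00802). Its calls were lost with total counts alone (1.03, adjusted p = 0.0101, and 0.97, adjusted p = 0.0324). wapla (chromosome 18, 20907361 to 20942163) had 5.66, 7.60 and 11.3 CPM before P and 0.661, 1.68 and 1.16 CPM after it, and 5.48, 7.67 and 4.44 CPM before DHP and 1.504, 1.06 and 1.01 CPM after it. All eggs were below all oocytes, and the change was called after P (-2.82 ± 0.60, adjusted p = 0.00295) but not after DHP (-2.35 ± 0.60, adjusted p = 0.0165). Without library 2, 9 or 10 the adjusted p after P was 0.0108 to 0.0155.

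pds5a and sgo1 were higher after P. pds5a (chromosome 5, 8685489 to 8706896), a cofactor that works with WAPL and with cohesion establishment, had 144, 200.2 and 124 CPM before and 477, 507 and 511 CPM after P, and 225, 149.5 and 119 CPM before and 397, 392 and 662 CPM after DHP. Its log2 fold change was 1.65 ± 0.25 (adjusted p = 4.39e-04) and 1.49 ± 0.36 (adjusted p = 0.0136). sgo1 (chromosome 8, 53481569 to 53488089), shugoshin, which shields centromeric cohesin, had 3.05, 9.78 and 3.55 CPM and then 29.9, 41.5 and 30.1 CPM around P. Around DHP it had 5.75, 8.02 and 3.38 CPM and then 22.8, 24.9 and 18.4 CPM. The lowest egg was above the highest oocyte in both arms, and the change was 2.59 ± 0.50 after P (adjusted p = 0.00174) and 1.88 ± 0.49 after DHP (adjusted p = 0.0176). Both P calls were lost with total counts alone (0.90, adjusted p = 0.0127 for pds5a, and 1.83, adjusted p = 0.0120 for sgo1).

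nipbla (chromosome 10, 46874522 to 46933372), which loads cohesin onto DNA, was lower after P, from 27.4, 40.8 and 39.0 CPM to 9.66, 9.11 and 12.1 CPM (log2 fold change -1.82 ± 0.34, adjusted p = 0.00148). Around DHP it had 20.4, 38.4 and 32.1 CPM and then 30.6, 10.6 and 11.2 CPM, and library 4 overlapped the oocytes (-0.87 ± 0.53, adjusted p = 0.227). pds5b (chromosome 12, 36073441 to 36122099) had 17.4 to 79.7 CPM over the 12 libraries and overlapped in both arms (-0.29 ± 0.47 and -0.08 ± 0.48).

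Condensin I was higher after P in every subunit tested. ncaph (chromosome 10, 2725108 to 2733771), its kleisin, had the highest fold change of the members called higher. It had 54.9, 82.5 and 36.7 CPM in oocytes before P and 941, 1115 and 806 CPM in eggs after P. Around DHP it had 152, 34.7 and 42.1 CPM and then 625, 752 and 922 CPM, with 294 to 7958 counts a library over all groups. The groups lay far apart in both arms (log2 fold change 4.01 ± 0.34, adjusted p = 2.62e-05, and 3.26 ± 0.57, adjusted p = 0.00424), and library 3 was the highest oocyte library.

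The shared subunits and the HEAT-repeat subunits were called after P only. smc2 (chromosome 5, 3518734 to 3529020) had 190.5, 277 and 205 CPM and then 722, 747 and 642 CPM around P, and 248, 156 and 146 CPM and then 217, 595 and 383 CPM around DHP. smc4 (chromosome 12, 42341518 to 42372906) had 328, 415 and 242 CPM and then 858, 831 and 741 CPM around P, and 367, 255 and 284 CPM and then 310.5, 664 and 457 CPM around DHP. In both genes the egg library 4 lay below the oocyte library 3 of its pair, and the other eggs were above all oocytes of their arm. The log2 fold changes were 1.63 ± 0.24 (smc2, adjusted p = 3.69e-04) and 1.28 ± 0.25 (smc4, adjusted p = 0.00196) after P, and 1.04 ± 0.40 and 0.58 ± 0.34 after DHP (adjusted p = 0.0710 and 0.207). ncapg (chromosome 5, 62451153 to 62467643) changed by 1.28 ± 0.25 after P (adjusted p = 0.00185) and by 0.80 ± 0.34 after DHP (adjusted p = 0.0952). ncapd2 (chromosome 1, 71944872 to 71964816) changed by 1.56 ± 0.34 (adjusted p = 0.00326) and 0.84 ± 0.61 (adjusted p = 0.308).

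ncapd2 also differed between the females of the DHP arm. Library 11 had 588 CPM against 175 and 182 CPM in the other oocytes before DHP, and library 12 of the same pair was the highest egg of that arm with 954 CPM. All 4 genes lost their P call with total counts alone (0.52 to 0.88, adjusted p = 0.0115 to 0.112), smc4 without library 1 (adjusted p = 0.0101), and ncapd2 without library 1, 6 or 9 (adjusted p = 0.0140 to 0.0179). In 1 fit of all 12 libraries ncapd2 was not called after P either. smc4 overlaps ift80, and ncapd2 overlaps 3 other annotated genes, so reads may be shared.

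None of the subunits found only in condensin II was called higher. They are few, and 17.9% of all genes tested were higher after P and 7.35% after DHP, so this is not unusual. ncaph2 (chromosome 7, 6169213 to 6182718), its kleisin, had 71.4, 103 and 43.9 CPM and then 36.8, 25.8 and 26.5 CPM around P, and 57.0, 56.6 and 70.2 CPM and then 15.3, 27.4 and 25.0 CPM around DHP. All eggs were below all oocytes, at -1.32 ± 0.36 after P (adjusted p = 0.0113) and -1.52 ± 0.38 after DHP (adjusted p = 0.0155). With the females as a block, ncaph2 passed after P (-1.25 ± 0.31, adjusted p = 0.00547). It also passed after P with DESeq2, no filter, 1 fit of 12 libraries and total counts alone (-2.06, adjusted p = 0.00159), and after DHP with DESeq2, 1 fit of 12 libraries and total counts alone (-2.14, adjusted p = 0.00378). ncapg2 (chromosome 4, 46202273 to 46227779) had 13.9 to 18.4 CPM before and 6.61 to 8.20 CPM after P (-1.21 ± 0.38, adjusted p = 0.0195), and 12.2 to 21.1 CPM before and 12.4 to 24.5 CPM after DHP (-0.18 ± 0.48). ncapd3 (chromosome 9, 22407176 to 22435304) had 12.4 to 52.3 CPM over the 12 libraries, and its groups overlapped.

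Ratios of counts within a library do not depend on the scaling of libraries. 10 ratios were taken, chosen after their values were seen and given with no test. Of the denominators, ncaph2, pds5b, ncapd3 and rad21l1 overlap another annotated gene, so reads may be shared. ncaph to ncaph2 was 0.769 to 0.836 in oocytes before P and 25.6 to 43.3 in eggs after P, and 0.5997 to 2.67 before and 27.5 to 40.8 after DHP. smc3 to stag2b was 2.98 to 4.15 and then 21.0 to 23.5 around P, and 2.66 to 5.48 and then 17.3 to 22.5 around DHP. The balance of the copies of the release factor, waplb to wapla, was 8.49 to 22.2 and then 242 to 618 around P, and 14.6 to 31.0 and then 213 to 561 around DHP. Each egg library had only 5 to 12 counts of wapla, so these egg values carry a large counting error. pds5a to pds5b was 2.51 to 4.39 and then 8.80 to 26.0, and 2.91 to 5.86 and then 10.8 to 22.9. These 4 ratios, as well as ncapg to ncapg2 and smc3 to LOC118230889, did not overlap between oocytes and eggs in either arm. The other pairs of condensin I and II subunits moved less than ncaph to ncaph2. The median ratio in eggs was 3.73 times that in oocytes around P and 2.23 times around DHP for ncapd2 to ncapd3, which overlapped around DHP. It was 6.11 and 1.66 times for ncapg to ncapg2, against 38.0 and 60.3 times for ncaph to ncaph2. rad21b to rad21l1 overlapped around DHP and smc1a to smc1b around P. By contrast smc2 to smc3 was 0.923 to 1.37 and then 0.833 to 1.03 around P, and 0.817 to 1.204 and then 0.259 to 0.937 around DHP, with overlap in both.

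**Figure D3:**
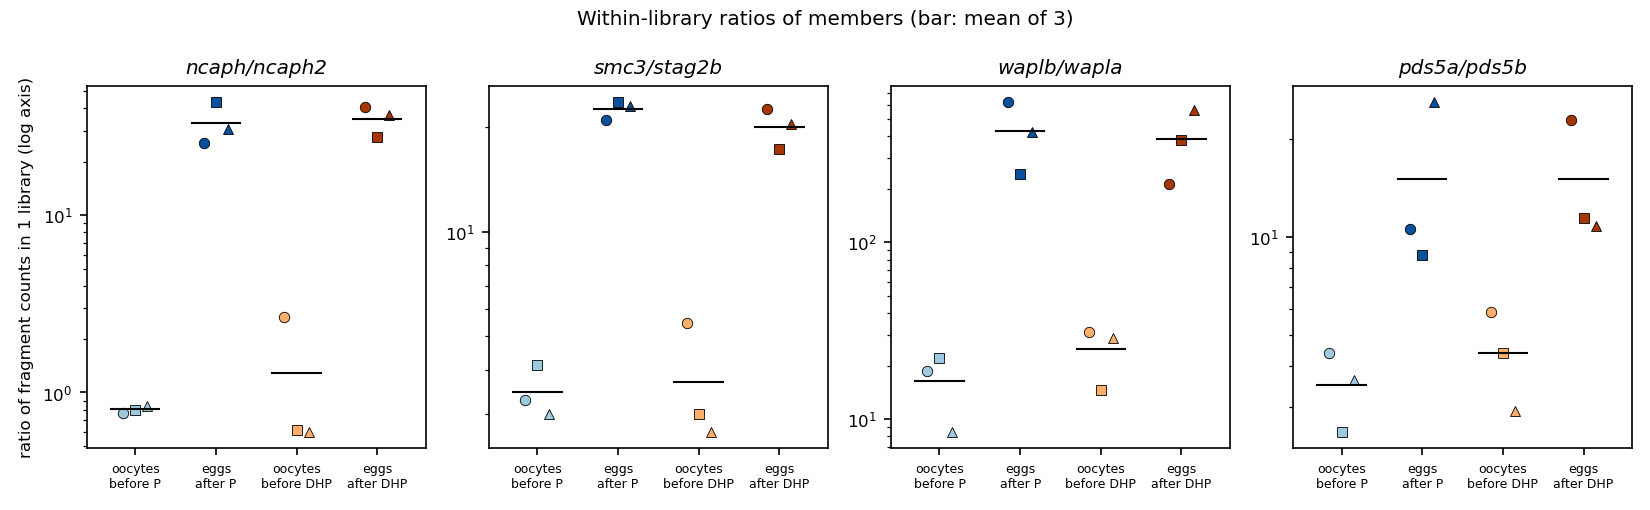
Ratios of fragment counts of 2 genes within each of the 12 libraries, on a log axis, 3 libraries a group, with the group mean as a bar. The ratio of ncaph to ncaph2 ran from 0.5997 to 2.67 in the 6 oocyte libraries and from 25.6 to 43.3 in the 6 egg libraries.

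The members that were lower in eggs stood beside the lower sums of follicle and stroma markers given above. Fewer cells of a type and less RNA per cell cannot be told apart in these bulk samples, and the part of the follicle cells in the lower counts of wapla, nipbla, mnd1, sycp2l and SA-1 gene 118223898 was not tested. Nor was it tested for ncaph2 and stag2b, which were lower in all eggs without passing the threshold, or for the ratios that hold these genes. The number called lower after P was 5 with all libraries, 1 without library 2, and 3 without library 6 or library 10. Over all genes, 3483 of 15348 were lower after P with all libraries and 2642 of 16374 without library 2. Without library 6 the count was 2497 of 16407, and without library 10 it was 2783 of 16570.

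Of the remaining SMC genes, smchd1 and smc5 were higher. smchd1 (chromosome 4, 48520768 to 48555676), a noncanonical SMC protein that acts in gene silencing in mammals, had 68.3, 73.2 and 66.1 CPM before and 297, 361 and 377 CPM after P. It had 95.9, 60.7 and 73.7 CPM before and 323, 277 and 395 CPM after DHP. No groups overlapped (log2 fold change 2.29 ± 0.23, adjusted p = 5.01e-05, and 2.04 ± 0.32, adjusted p = 0.00337). smc5 (chromosome 14, 26370796 to 26385931), of the SMC5-SMC6 repair complex, rose after P from 30.4 to 53.3 CPM to 83.8 to 139 CPM (1.42 ± 0.32, adjusted p = 0.00407). After DHP it went from 32.9 to 61.3 CPM to 76.2 to 115 CPM (1.06 ± 0.37, adjusted p = 0.0523). The P call was lost without library 1, 2, 6 or 9 (adjusted p = 0.0111 to 0.0238) and with total counts alone (0.68, adjusted p = 0.117).

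Its partner SMC6 is annotated as neighbouring SMC6-like genes on chromosome 6, LOC118230812 (28191876 to 28220134) and LOC118230813 (28240634 to 28267838), between which reads could be split. They had 14.6 to 106 CPM and 38.9 to 149 CPM over the 12 libraries, and neither changed past the threshold (-0.08 ± 0.65 and -0.09 ± 0.45 after P, -0.50 ± 0.43 and -0.22 ± 0.36 after DHP). In both genes the highest values belonged to library 2, and library 1 of the same pair was the highest oocyte library.

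Genes of the synaptonemal complex, which joins homologous chromosomes in prophase, had low counts except for sycp2l and, in 1 female, sycp3. sycp2l (chromosome 4, 19388979 to 19406781), a lateral element protein of oocytes in mice, had 41.8, 25.7 and 39.9 CPM and then 6.75, 7.42 and 18.9 CPM around P (-1.73 ± 0.46, adjusted p = 0.00978). Around DHP it had 14.5, 43.0 and 39.5 CPM and then 15.3, 18.3 and 8.38 CPM, with overlap (-1.29 ± 0.53, adjusted p = 0.0856). The P call was lost without library 1, 2, 5, 6 or 9 (adjusted p = 0.0111 to 0.0410), with RLE scaling and in 1 fit of all 12 libraries. sycp1, syce2, syce3, LOC118207914, LOC118207919 and LOC118208138 were below the filter with 0 to 49 counts over all libraries, and LOC118207919 had 0.

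sycp3 (chromosome 7, 16432528 to 16437416), a lateral element protein, stood apart in libraries 3 and 4, the oocytes and eggs of a DHP pair. It had 475 and 874 counts there and 3 to 24 counts in each of the other 10 libraries. Library 3 had 42.0 CPM, 24.2 times the next highest oocyte library, and library 4 had 119 CPM, 34.4 times the next highest egg library. Among 16078 genes with at least 100 counts, 7 were at least 10 times higher in both of these libraries than in every other library, and sycp3 was the only member among them. In the other 5 pairs 2 to 9 genes did so and 0 members. Outside that pair sycp3 was at 0.269 to 1.74 CPM in oocytes and 1.45 to 3.47 CPM in eggs, with a log2 fold change of 1.87 ± 0.76 after P (adjusted p = 0.0603).

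**Figure D4:**
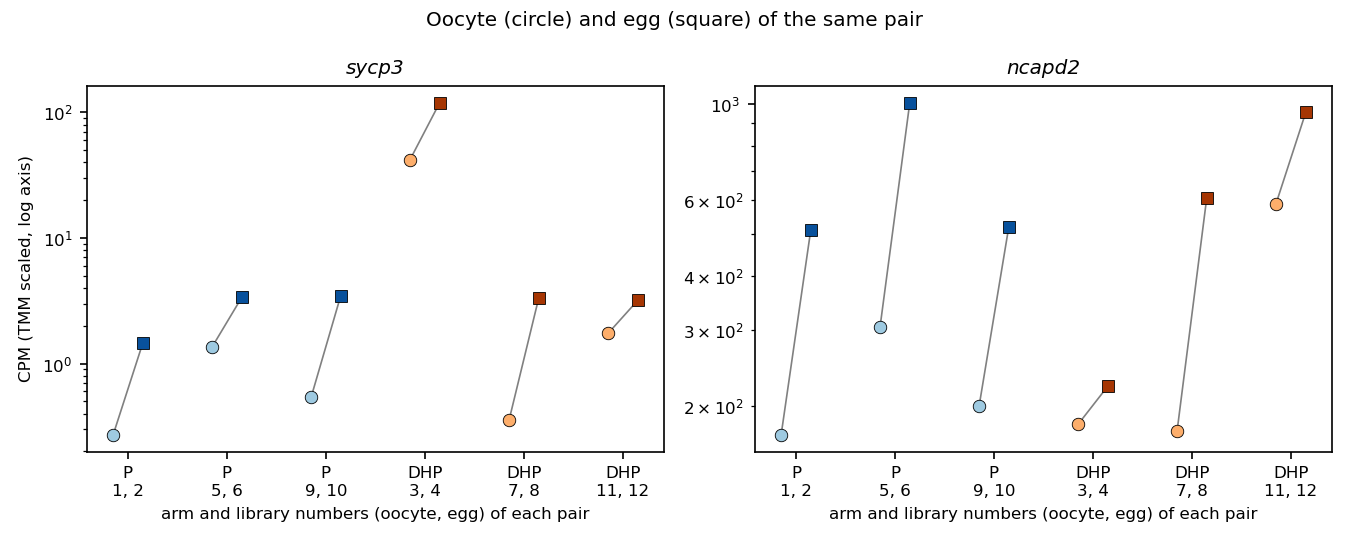
TMM-scaled CPM (log axis) of sycp3 and ncapd2 in the oocyte library (circle) and egg library (square) of each pair, joined by a line. sycp3 was at 42.0 and 119 CPM in libraries 3 and 4 and at most 3.47 CPM elsewhere. For ncapd2, library 11 was the highest oocyte library and library 12 the highest egg library of the DHP arm.

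In meiotic recombination, eme1 was higher in both arms and mnd1 was lower after P. eme1 (chromosome 2, 56322477 to 56329992), which with MUS81 cuts branched DNA, had 89.6, 78.6 and 77.9 CPM and then 551, 746 and 706 CPM around P. Around DHP it had 118, 74.3 and 100.5 CPM and then 434, 594 and 626 CPM. The lowest egg was above the highest oocyte in both arms (log2 fold change 3.00 ± 0.24, adjusted p = 1.99e-05, and 2.42 ± 0.32, adjusted p = 0.00203). It overlaps mrpl27, and reads may be shared. mnd1 (chromosome 7, 43267191 to 43282508), whose product helps meiotic strand exchange, had 36.5, 25.7 and 41.0 CPM and then 5.03, 5.04 and 12.4 CPM around P (-2.22 ± 0.45, adjusted p = 0.00233). Around DHP it had 32.6, 39.2 and 39.4 CPM and then 8.07, 22.5 and 6.03 CPM (-1.69 ± 0.54, adjusted p = 0.0366). All eggs were below all oocytes, and the P call was lost without library 2 or 6 (adjusted p = 0.0111 and 0.0116).

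Genes for making and processing meiotic DNA breaks had low levels, though spo11 (14 to 50 counts) and meiob (11 to 39 counts) were detected in every library. spo11, which makes the breaks, had 1.33 to 6.61 CPM. dmc1, the meiotic strand exchange protein, had 0.269 to 2.35 CPM, mei4 had 0 to 3.42 CPM and meiob had 1.82 to 5.90 CPM. rec114 (0 to 2.01 CPM) and the MEI1-like LOC118217378 (0.165 to 1.97 CPM) were tested in the DHP arm only, and hfm1 (55 counts in all) and m1ap (23 counts) in neither. None of these members was called by edgeR.

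The other members are genes named for meiosis. Of the 7 tested, 4 were higher after P and 2 after DHP, against 17.9% and 7.35% of all genes tested. wee2 (chromosome 7, 13038260 to 13044319) encodes a kinase that holds back CDK1 in mammalian oocytes. It had 132, 115 and 153 CPM before and 694, 883 and 986 CPM after P, and 141, 133 and 174 CPM before and 435, 793 and 1045 CPM after DHP. The groups did not overlap, and library 4 was the lowest egg library (log2 fold change 2.65 ± 0.25, adjusted p = 3.75e-05, and 2.27 ± 0.37, adjusted p = 0.00364). rmnd5b (chromosome 3, 14221262 to 14233624), a subunit of the CTLH ubiquitin ligase, had 9.43, 4.44 and 7.63 CPM and then 136, 58.8 and 95.4 CPM around P. Around DHP it had 15.2, 9.44 and 6.76 CPM and then 88.5, 85.4 and 89.1 CPM. Its eggs were also above all oocytes (3.73 ± 0.43, adjusted p = 1.08e-04, and 2.99 ± 0.42, adjusted p = 0.00240).

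mns1 (chromosome 5, 45378256 to 45383772), a protein of motile cilia and sperm tails in mice, had 34.5 to 52.3 CPM before and 175 to 271 CPM after P (2.26 ± 0.29, adjusted p = 1.83e-04). It had 98.7, 33.2 and 24.4 CPM before and 324, 153 and 144 CPM after DHP, without overlap. It missed the threshold after DHP (1.91 ± 0.57, adjusted p = 0.0283) and passed it with the females as a block (2.08 ± 0.31, adjusted p = 0.00372). mns1 overlaps tex9. The MEIOC-like LOC118233678 (chromosome 8, 21741054 to 21760170), named for a factor that sustains meiotic prophase in mice, had 3.54 to 11.1 CPM before and 21.9 to 29.9 CPM after P (1.84 ± 0.47, adjusted p = 0.00748). It had 6.18 to 13.004 CPM before and 17.7 to 39.9 CPM after DHP (1.67 ± 0.51, adjusted p = 0.0302), and its P call held in 1 of 6 fits with a library left out: it was lost without library 2, 5, 6, 9 or 10 (adjusted p = 0.0149 to 0.0326), and also with total counts alone (1.09, adjusted p = 0.0688).

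The rest of this group was not called. mios had 9.35 to 49.3 CPM, LOC118220346, the RNA-degrading factor MARF1 of mouse oocytes, had 5.30 to 18.7 CPM, and rmnd1 had 0.280 to 14.3 CPM over the 12 libraries. meig1, a spermiogenesis gene in mice, was below the filter. It had 29 counts in oocytes before P and 0 in eggs after P, at least 5.95 times higher in oocytes when 3 counts over the group are allowed for, and 26 and 2 counts around DHP, a ratio of 8.58 (95% exact counting interval 2.15 to 74.6, counting error only).

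Between eggs after P and eggs after DHP, 0 of the 39 members tested were called by edgeR, as were 0.0% of all 13178 genes tested. At an unadjusted p under 0.05 there were 5 members and 602 genes, and DESeq2 called 9 genes and 0 members. The 5 members were smc4, with a log2 difference (P minus DHP) of 0.83 (95% interval 0.25 to 1.41, unadjusted p = 0.00923), smc2 (0.89, 0.22 to 1.56), ncapg (0.60, 0.01 to 1.19), ncapg2 (-1.13, -2.24 to -0.01) and sycp3 (-3.94, -6.71 to -1.17). All adjusted p were 0.984 (edgeR), and smc4, smc2 and ncapg had their lowest egg value in library 4. For the ring subunits smc1a, smc3 and rad21b the interval of the log2 difference ran from -0.36 to 0.51, from -0.36 to 0.65 and from -0.62 to 0.43.

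Between the oocytes of both arms, before the injection of P or DHP, 0 of 43 members were called and 0.0% of 16153 genes. At an unadjusted p under 0.05 there were 1 member, sycp3 (log2 difference DHP minus P 4.30 ± 1.46, unadjusted p = 0.0150, edgeR), and 494 genes. DESeq2 called 10 genes there.

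The calls in the P arm only are not shown to differ from the DHP arm. In a fit of all 12 libraries, the change from oocyte to egg differed between the arms in 0 of 46 members and in 0.0% of 16891 genes. 0 members and 700 genes were under an unadjusted p of 0.05, and DESeq2 called 3 genes. ncapg2 had the smallest p of the members (difference of the log2 fold changes, P minus DHP, -1.08, 95% interval -2.30 to 0.14, unadjusted p = 0.0781). For the members called in both arms the difference was between 0.00 for smc3 (-0.98 to 0.98) and 0.71 for ncaph (-0.70 to 2.12). Over these 8 members the intervals reached from -0.98 to 2.12.

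Genes outside the rule that work with these complexes were taken from a list of 42 names. After P, 15 of the 35 tested were higher and 4 lower, and after DHP 10 of the 37 tested were higher and 1 lower, with medians of 1.12 and 0.66 on the log2 scale (all genes 17.9% higher and 22.7% lower after P, 7.35% and 6.22% after DHP). With total counts alone 9 were higher and 9 lower after P, and 4 higher and 3 lower after DHP. All genes then had 1295 higher and 5205 lower of 15348 after P, and 490 and 2105 of 15149 after DHP. After DHP 1 was higher when library 7, 11 or 12 was left out, and 6 when library 4 or 8 was. 0 were lower when library 4, 7, 11 or 12 was left out, and 3 when library 8 was. The 14 genes of cohesin loading, acetylation and cleavage had 7 higher and 1 lower (chtf8) after P, and 7 higher and 0 lower after DHP. chtf8 also went down after DHP without a call (-3.26 ± 0.95, adjusted p = 0.0273). espl1 (separase, which cuts the kleisin) rose by 3.10 ± 0.35 (adjusted p = 9.49e-05) and 2.39 ± 0.39 (adjusted p = 0.00364) and pttg1 (securin, its inhibitor) by 2.12 ± 0.24 and 1.96 ± 0.27. Both were higher in eggs of both arms, as were esco2, which acetylates SMC3 (2.13 ± 0.23 and 1.95 ± 0.35), and cdca5 or sororin, which opposes WAPL (1.39 ± 0.32 and 2.02 ± 0.45). ctcf, which positions cohesin loops, rose by 4.18 ± 0.33 and 2.76 ± 0.53.

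Among the 9 partners of condensation 4 were higher and 1 lower after P, against 17.9% and 22.7% of all genes. After DHP 2 were higher and 0 lower, against 7.35% and 6.22%. kif22, a chromokinesin, rose by 3.33 ± 0.31 after P and 3.06 ± 0.30 after DHP. The topoisomerases went apart after P: top2a fell from 133 to 315 CPM to 5.88 to 13.9 CPM (-4.55 ± 0.49, adjusted p = 7.63e-05) and top2b rose from 31.9 to 41.8 CPM to 85.5 to 109.8 CPM (1.35 ± 0.27, adjusted p = 0.00189). After DHP the directions were the same without a call (top2a -2.64 ± 0.60, adjusted p = 0.0101, and top2b 1.08 ± 0.39, adjusted p = 0.0570). Of the 6 partners of SMC5 and SMC6, 2 rose after P (nsmce4a, 1.51 ± 0.29, and slf2, 1.197 ± 0.29) and nsmce4a after DHP (1.36 ± 0.30). slf2 was not called after DHP (1.18 ± 0.33, adjusted p = 0.0239). Among the genes of recombination, terb1, which ties telomeres to the nuclear envelope in mouse meiosis, rose by 1.64 ± 0.32 after P (adjusted p = 0.00191), and psmc3ip, whose product pairs with MND1, fell by 1.83 ± 0.45 after P (adjusted p = 0.00607). Neither was called after DHP, where terb1 changed by 1.47 ± 0.42 (adjusted p = 0.0244) and psmc3ip by -2.01 ± 0.46 (adjusted p = 0.0106). The part of the follicle cells in the lower counts of top2a, chtf8 and psmc3ip was not tested either.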

How the data were processed

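RNA-seq libraries (2 x 150 reads, stranded poly(A) kit) came from 12 samples. The authors aligned reads with TopHat2 2.0.13 to fAngAng1.pri, removed secondary alignments with SAMtools 1.2 and counted fragments per gene with HTSeq 0.6.1p1. The sources used here do not give the strand option of HTSeq, so reads of overlapping genes may be shared. The deposited values used are these raw counts. The deposited tables also hold the authors' fold changes and p-values (DESeq), which were not used. 0 per-sample columns remained unused, and 0 rows lacked a gene name. All 60 members were found in the RefSeq gene table, which gave positions. Sequences and transcript lengths were not used here, so statements that some genes had more or fewer counts than others are not corrected for length.

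Counts were compared with edgeR 4.0.16 (R 4.3.3, glmQLFit and glmQLFTest) after filterByExpr (minimum count 10, minimum total 15) and TMM scaling. Every comparison of 2 groups used their 6 libraries only. The threshold was an adjusted p under 0.01. The SE was taken from the F statistic. The main fits did not use the pairing, so the oocyte and egg libraries of 1 female entered as independent. P-values rest on the spread between the 3 libraries within each group, with each gene's variance moderated by that of all genes. DESeq2 1.42.0, RLE scaling, total counts, no filter, 1 fit of 12 libraries, an adjusted p under 0.05, a replicate block and each library left out were alternatives. Python 3.11.15 with pandas 2.3.3 made the tables. Programs were tested on simulated data. The study sampled each female before and after injection, and libraries were paired by the order of their numbers: deviations from group means correlated at r = 0.272 to 0.416 within these pairs and at -0.299 to -0.0435 in other combinations.

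The members, lists and tests were chosen with earlier results of these data known. Members called in both arms are given in every library, those called in 1 arm with both fold changes, all others with their range, and where no member was called the one of smallest p is named. Counting intervals (95%) cover counting error only, and 0 counts were taken to allow 3. Some listed genes outside the rule are not reported here.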

Additional observations from a re-analysis of the deposited data

Results flagged for a closer look

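The recombination gene meiob, whose product binds single-stranded DNA in meiosis, was lower in the eggs than in the oocytes of every pair after P and higher in every pair after DHP. The difference between the log2 fold changes, P minus DHP, was -0.93 (95% interval -2.68 to 0.82), and edgeR's test of this difference over all genes gave an unadjusted p of 0.274. meiob had 1.82 to 5.90 CPM over the 12 libraries, and its change in neither arm was called (-0.39 ± 0.56 after P, 0.47 ± 0.62 after DHP). With total counts alone the change after DHP was -0.14.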

How the results depend on the processing

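Members higher after P numbered 18, 7 with total counts and 15 to 17 with a library left out. Members lower after P numbered 5, 8 at an adjusted p under 0.05, 8 with total counts and 1 to 4 with a library left out. Members higher after DHP numbered 8, 13 at an adjusted p under 0.05, 13 with DESeq2, 5 with total counts and 0 to 10 with a library left out. Members lower after DHP numbered 0, 4 at an adjusted p under 0.05, 3 with total counts, 3 with DESeq2, 2 in 1 fit of 12 libraries and 0 to 1 with a library left out. Over all genes, total counts gave 1295 higher and 5205 lower after P, and 490 higher and 2105 lower after DHP. DESeq2 gave 2254 higher and 2212 lower after DHP. An adjusted p under 0.05 gave 4845 lower after P, and 2390 higher and 2755 lower after DHP. The main fits gave 2744 higher and 3483 lower after P, and 1114 higher and 943 lower after DHP. With a library left out, 1970 to 2445 genes were higher and 2497 to 2869 lower after P. After DHP such fits gave 65 to 976 higher and 57 to 961 lower. Without a filter 1 member, sycp3, differed between the eggs. The change of smc4 after DHP reversed to -0.041 with total counts. With the replicate block the members were 18 higher and 6 lower after P and 9 higher and 0 lower after DHP. Over all genes the block gave 3380 higher and 4084 lower after P, and 1381 higher and 1351 lower after DHP. The pairing left 0 calls in the difference between the arms. The block added ncaph2 (lower after P) and mns1 (higher after DHP) and changed no other call of a member in either arm. The causes of these shifts were not tested. The filter on low counts left 15 members untested in both arms. With 3 females a group, members that miss the threshold after DHP are not shown to be unchanged.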
